A study of Danio rerio with 23 samples.

Results

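A set of 8 genes listed under enterocyte fat uptake and lipoprotein assembly was followed in RNA-seq of whole adult zebrafish intestines during starvation and refeeding. They were chosen by symbol from a named list covering fatty acid uptake, fatty acid binding and lipoprotein assembly. All 8 were found among the 34326 Ensembl gene identifiers of the count files. They are *cd36* (ENSDARG00000032639), *scarb1* (ENSDARG00000101557), *fabp1b.1* (ENSDARG00000059227), *fabp2* (ENSDARG00000006427), *fabp6* (ENSDARG00000044566), *scp2a* (ENSDARG00000012194), *mttp* (ENSDARG00000008637) and *pla2g12b* (ENSDARG00000015662). The study itself names *fabp1b.1*, *pla2g12b* and *scp2a* from these libraries, so the list is not independent evidence of a direction.

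The 23 libraries each came from the intestine of 1 fish. Starved fish were sampled after 3 days (3dpS, n = 4) and 21 days (21dpS, n = 4) without food, and refed fish 3 days after food was returned (3dpR, n = 4). Continuously fed controls were taken at 3dpS (n = 3), 21dpS (n = 4) and 3dpR (n = 4). All fish were siblings from 1 breeding pair and carried no stated mutation or transgene. They were sampled before the first meal of the day. The labels give an age of 81 dpf (days post fertilization) for all 23 libraries, although the same labels start the experiment at 60 dpf, so age was not used. Fed controls lived in 2 tanks and starved or refed fish in 2 other tanks. Each fish was taken as a replicate, and the p-values therefore do not cover differences between tanks.

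In the intestine, bile and pancreatic lipase release fatty acids and monoglycerides from food, and enterocytes take these up, bind them in the cytosol and rebuild them into triglyceride. In the endoplasmic reticulum the microsomal triglyceride transfer protein loads triglyceride onto apolipoprotein B, and the particle is exported through the secretory pathway as a chylomicron. Enterocytes of the front part of the zebrafish gut do most of this work.

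Library totals were 500205 to 1236436 reads (median 596487). Levels are given as CPM, reads per 1000000 reads of the library total multiplied by a TMM normalization factor (0.816 to 1.23). Without this factor, a count of 3, taken as the smallest detectable, stands for 2.43 to 6.00 reads per 1000000. With it, the 3 reads of *scarb1* in 3dpR refed replicate 1 are 6.45 CPM. Counting limits cover counting error only. *scarb1* was the gene with the fewest reads, 3 to 80 per library with a median of 14, and *mttp* had 12 to 69. The other 6 genes had medians of 65 to 297 reads. All 5 matched enterocyte markers, *vil1* and *cdh17* among them, were detected, with summed levels of 1844 to 2618 CPM in 21dpS starved fish and 2158 to 2855 CPM in 21dpS fed controls. Summed exocrine pancreas markers (12 genes) ranged from 159 to 406 CPM in 21dpS starved fish and from 244 to 1116 CPM in 21dpS fed controls, and summed liver markers (8 genes) from 255 to 431 CPM and from 88.8 to 749 CPM in the same groups. In every library the mitochondrial gene MT-ND6, encoded on the other strand from the 12 other mitochondrial protein genes, had more reads than their sum. The strand setting of the counting is not stated in the sources used here. Whether the reads of the 8 genes came from the sense strand was not tested.

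**Figure D1:**
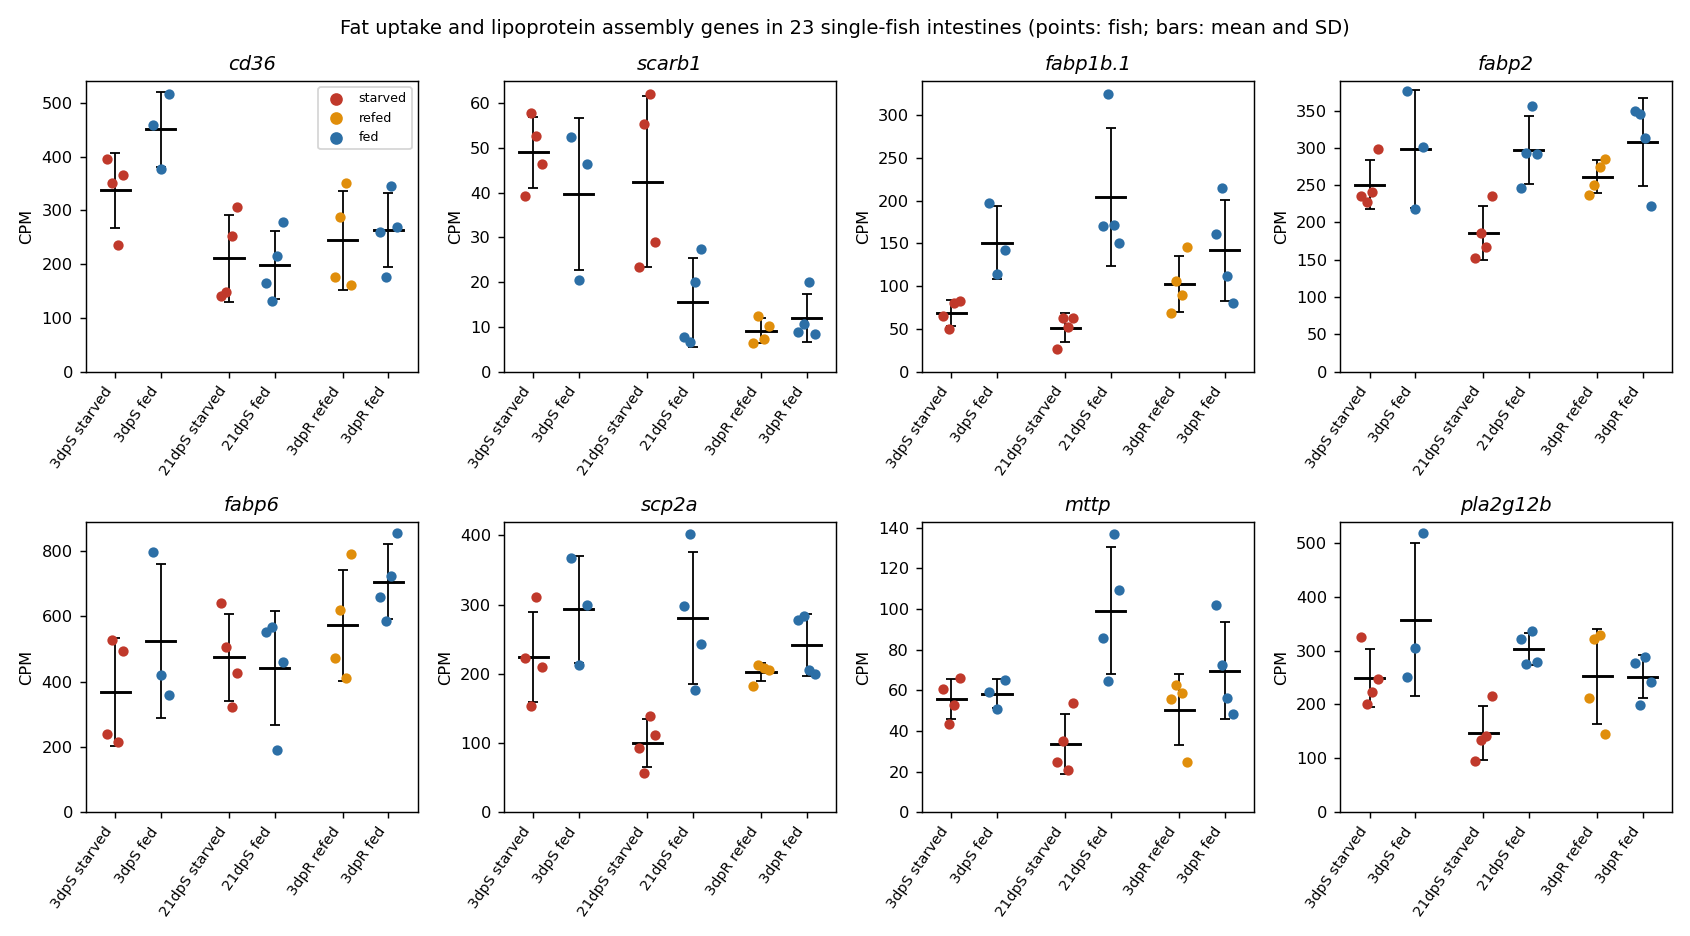
Levels (CPM, linear axis from 0) of the 8 genes, 1 panel a gene, with 1 point per fish, the group mean as a bar and the SD as whiskers (n = 3 for 3dpS fed, n = 4 for every other group). At 21dpS the starved points of *fabp1b.1*, *fabp2*, *scp2a*, *mttp* and *pla2g12b* lie below all fed points, and *scarb1* lies at 6.45 to 19.997 CPM in both 3dpR groups.

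The first question was whether 3 days without food changed these genes. None of the 8 was called in 3dpS starved fish against 3dpS fed controls (edgeR, adjusted p under 0.05), where 0.531% of all tested genes were called. *fabp1b.1* alone had an unadjusted p under 0.05, against 15.0% of all genes tested, and DESeq2 called this 1 gene. The fold changes of 7 of the 8 genes were negative, and their median on the log2 scale was -0.41, against 0.01 for all tested genes.

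The second question was whether 21 days without food did so. At 21dpS, 4 of the 8 genes fell and none rose, whereas 1.65% of all tested genes were called lower. The 4 were *fabp1b.1*, *mttp*, *scp2a* and *pla2g12b*. In 5 of the 8, these 4 and *fabp2*, all starved fish lay below all fed controls, compared with 5.37% of all tested genes. The median log2 fold change of the 8 was -0.93, against -0.02 for all genes. *cd36* and *fabp6* had fold changes near 0, and *scarb1* had a positive one that was not called. In a bulk intestine, fewer cells of a type and less RNA per cell cannot be told apart.

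The third question was whether 3 days of food brought the genes to the level of fed controls. At 3dpR, 7 of the 8 genes passed the filter on low counts, and none was called, beside 0.0349% of all tested genes. None had an unadjusted p under 0.05, against 7.51% of all genes, and DESeq2 called none. All 7 log2 fold changes were negative, with a median of -0.29, against -0.02 for all tested genes. Their 95% intervals reached down to -1.23, for *mttp*, and up to 0.54, for *pla2g12b*, so a missed threshold does not show that the refed and fed levels were alike.

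**Figure D2:**
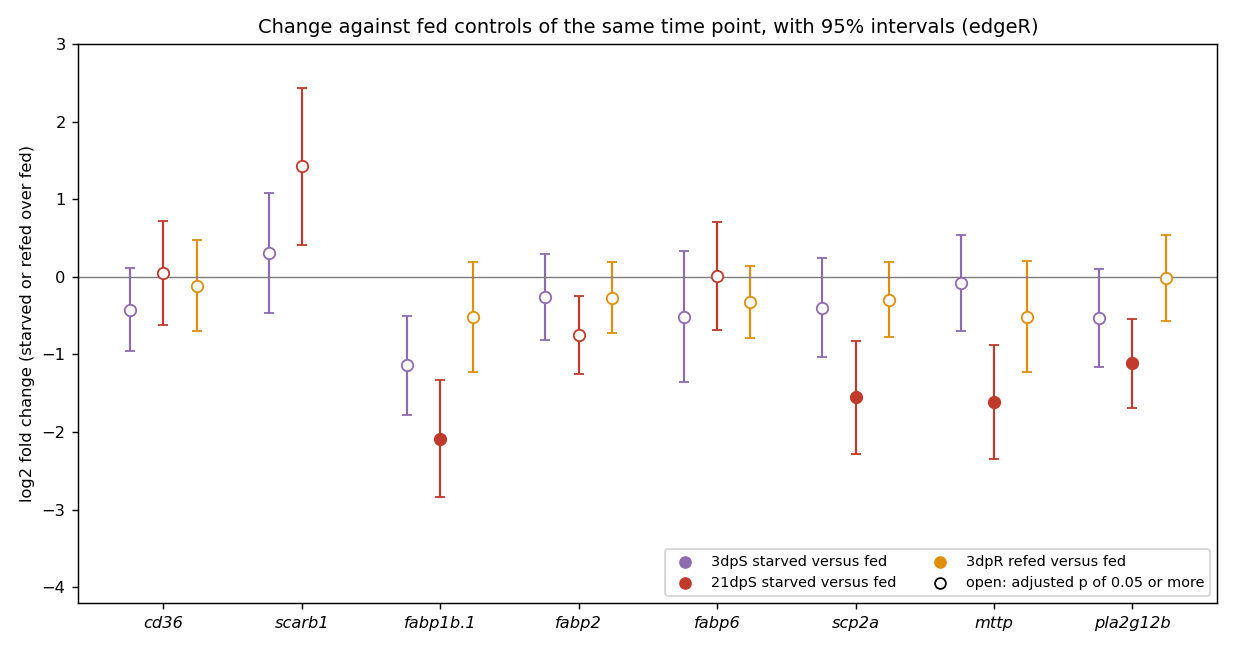
Log2 fold change of each gene in starved or refed fish over fed controls of the same time point, with 95% intervals from edgeR. Filled points have an adjusted p under 0.05. Only *fabp1b.1* (-2.09), *scp2a* (-1.55), *mttp* (-1.61) and *pla2g12b* (-1.12) at 21dpS are filled, and *scarb1* at 3dpR was not tested.

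*cd36* encodes a membrane protein that binds long-chain fatty acids at the cell surface. At 3dpS its level was 396, 351, 236 and 365 CPM in starved fish, against 459, 377 and 516 CPM in fed controls. At 21dpS it was 139.8, 148, 252 and 305 CPM in starved fish, against 165, 132, 216 and 278 CPM in fed controls. At 3dpR it was 176, 287, 351 and 160.2 CPM in refed fish, against 260.0, 177, 346 and 269 CPM in fed controls. The groups overlapped at all 3 time points. The log2 fold changes against fed controls were -0.43 ± 0.25 (SE), 0.05 ± 0.31 and -0.11 ± 0.27, with adjusted p of 0.454, 0.952 and 0.933.

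The larger differences in *cd36* were between fed controls of different time points. Fed fish at 21dpS averaged 198 ± 63.5 CPM (SD, n = 4) and fed fish at 3dpS 451 ± 70.0 CPM (SD, n = 3). No fish of one group reached the other, as in 409 of 3401 tested genes (either direction). The log2 fold change was -1.24 ± 0.29 (SE) with an adjusted p of 0.135 by edgeR, so it was not called, whereas DESeq2 called it (adjusted p = 0.00852). Fed fish at 3dpR were also all below fed fish at 3dpS (log2 fold change -0.82 ± 0.26, adjusted p = 0.575). These 2 fed groups were separate in either direction in 271 of 3482 tested genes. The 3dpS fed group has 3 fish, and the starved fish showed the same order in time, at 337 ± 69.8 CPM at 3dpS and 211 ± 81.0 CPM at 21dpS (SD, n = 4 each). In the RefSeq table of the GRCz12tu assembly, *cd36* overlaps *kdm7aa*, which had 0 to 10 reads per library, beside 78 to 486 for *cd36*. With the strand setting not stated, these counts do not show from which gene the reads in the overlap came.

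*scarb1* encodes the scavenger receptor class B type 1, a receptor for high-density lipoprotein that moves cholesterol across the membrane. At 3dpS it measured 39.3, 57.8, 52.6 and 46.3 CPM in starved fish, against 52.4, 20.4 and 46.4 CPM in fed controls. At 21dpS it measured 23.3, 55.3, 62.2 and 29.1 CPM in starved fish, against 7.79, 6.60, 20.1 and 27.4 CPM in fed controls. These are 15, 30, 39 and 20 reads in starved fish, against 5, 4, 10 and 14 in fed controls, and only the lowest starved and the highest fed fish overlap. The gene passed the filter on low counts here through the starved fish, so the difference is a description. The log2 fold change at 21dpS was 1.43 ± 0.47 (SE), with an adjusted p of 0.110. It was called without the filter on low counts (adjusted p = 0.0411), and with all 23 libraries in 1 fit (adjusted p = 0.0446). The 2 fed controls at 21dpS from the first fed tank had the lower values, 7.79 and 6.60 CPM, and those from the second tank 20.1 and 27.4 CPM.

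At 3dpR *scarb1* was low in both groups, with 6.45, 12.5, 7.32 and 10.3 CPM in refed fish (3, 6, 4 and 5 reads), against 8.86, 10.6, 19.997 and 8.40 CPM in fed controls (6, 7, 10 and 4 reads). It did not pass the filter on low counts there. Among fed controls *scarb1* averaged 15.5 ± 10.0 CPM at 21dpS and 12.0 ± 5.44 CPM at 3dpR (SD, n = 4 each), against 39.7 ± 17.0 CPM at 3dpS (SD, n = 3). The fed groups at 3dpR and 3dpS did not overlap, as in 271 of 3482 tested genes, and the difference was not called (log2 fold change -1.76 ± 0.45, adjusted p = 0.387). The gene passed the filter in this comparison only through the 3dpS fed fish, with 14 to 32 reads against 4 to 10, so the difference is a description. Starved fish at 3dpS and 21dpS, at 49.0 ± 8.003 and 42.5 ± 19.2 CPM (SD, n = 4 each), had the highest means of the 6 groups, and their ranges overlapped. *scarb1* overlaps *myo18b* in the RefSeq table, a gene that was not analysed here.

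The cytosolic fatty acid binding proteins ferry fatty acids or bile acids through the cell. *fabp1b.1*, a liver-type fatty acid binding protein made in the zebrafish intestine, had the largest fall of the 8 between starved fish and fed controls. At 3dpS it measured 65.0, 49.2, 79.6 and 82.2 CPM in starved fish, against 197, 114 and 142 CPM in fed controls. At 21dpS it measured 26.4, 62.7, 52.6 and 62.5 CPM in starved fish, against 169.8, 325, 171 and 151 CPM in fed controls. The groups were fully separated at both times, as in 554 of 3953 tested genes at 3dpS and 403 of 3203 at 21dpS (either direction). At 3dpR it measured 68.8, 106, 89.7 and 146 CPM in refed fish, against 161, 214, 112 and 79.8 CPM in fed controls, and the groups overlapped.

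At 3dpS the log2 fold change of *fabp1b.1* was -1.14 ± 0.30 (SE). Its adjusted p was 0.0948 by edgeR, 0.0369 by DESeq2 and 0.0344 without the filter on low counts, so the call at 3dpS depended on the test. At 21dpS the log2 fold change was -2.09 ± 0.35 (adjusted p = 0.00655), which puts starved fish at 23.6% of the fed level (95% interval 14.0% to 39.8%). This call held with each of the 8 libraries left out in turn, with adjusted p of at most 0.0253. At 3dpR it was -0.52 ± 0.33 (adjusted p = 0.694). One fed control at 21dpS stood apart at 325 CPM, and without it the log2 fold change was -1.72 (adjusted p = 0.0125). In the RefSeq table the paralog *fabp1b.2* is a neighbour of *fabp1b.1*, and how the counting shared reads between them is not stated.

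*fabp2* encodes the intestinal fatty acid binding protein, whose expression in mammals is largely limited to the enterocyte. In 21dpS fish it measured 152, 186, 167 and 235 CPM in starved fish, against 246, 293, 357 and 291 CPM in fed controls. The groups did not overlap, but the log2 fold change of -0.75 ± 0.23 (SE) was not called (adjusted p = 0.0926). At 3dpS *fabp2* averaged 251 ± 32.7 CPM in starved fish (SD, n = 4) and 299 ± 79.3 CPM in fed controls (SD, n = 3). At 3dpR it averaged 262 ± 22.4 CPM in refed fish and 308 ± 59.17 CPM in fed controls (SD, n = 4 each). The groups overlapped at both of these times, with log2 fold changes of -0.26 and -0.27. *fabp2* overlaps LOC137490010 in the RefSeq table, a protein-coding gene that was not analysed here.

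*fabp6* encodes the ileal bile acid binding protein, which carries bile acids and not fatty acids in the enterocytes that reabsorb them. In 21dpS fish it measured 640.0, 507, 324 and 427 CPM in starved fish, against 552, 567, 189 and 461 CPM in fed controls. Its log2 fold change there was 0.01 ± 0.33 (SE, adjusted p = 0.990, 95% interval -0.69 to 0.71). It averaged 369 ± 165 CPM in starved fish (SD, n = 4) and 525 ± 237 CPM in fed controls (SD, n = 3) at 3dpS, and 573 ± 169 CPM in refed fish and 707 ± 115 CPM in fed controls at 3dpR (SD, n = 4 each). Individual fish differed widely at each time, and the groups overlapped throughout. Between fed controls at 3dpR and 21dpS the groups were separate, as in 102 of 3114 tested genes (either direction), with a log2 fold change of 0.65 ± 0.31 (adjusted p = 0.881). The 2 other bile acid genes tested, the apical bile acid transporter *slc10a2* and the bile acid receptor *nr1h4*, had log2 fold changes of 0.07 and 0.36 at 21dpS and were not called.

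*scp2a* encodes sterol carrier protein 2, a lipid transfer protein with a peroxisomal thiolase form. At 21dpS this gene measured 93.2, 57.2, 139 and 112 CPM in starved fish, against 298, 402, 177 and 242 CPM in fed controls. The lowest fed fish was above the highest starved fish. The log2 fold change was -1.55 ± 0.34 (SE, adjusted p = 0.0270), or 34.2% of the fed level (95% interval 20.6% to 56.5%). At 3dpS *scp2a* averaged 224 ± 65.3 CPM in starved fish (SD, n = 4) and 293 ± 77.5 CPM in fed controls (SD, n = 3), with an adjusted p of 0.588. At 3dpR it measured 183, 212, 209 and 205 CPM in refed fish, against 278, 284, 206 and 199.6 CPM in fed controls (log2 fold change -0.29 ± 0.23, adjusted p = 0.750).

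*mttp* encodes the large subunit of the microsomal triglyceride transfer protein. At 3dpS it measured 60.5, 43.4, 52.6 and 65.8 CPM in starved fish, against 59.0, 51.0 and 64.9 CPM in fed controls, a log2 fold change of -0.08 ± 0.29 (SE). At 21dpS it measured 24.9, 35.0, 20.7 and 53.8 CPM in starved fish, against 85.7, 64.3, 137 and 109 CPM in fed controls. These are 16, 19, 13 and 37 reads in starved fish, against 55, 39, 68 and 56 in fed controls. The groups separated at 21dpS and not at 3dpS. The log2 fold change at 21dpS was -1.61 ± 0.34 (adjusted p = 0.0212), or 32.7% of the fed level (95% interval 19.7% to 54.3%). In 3dpR fish it measured 55.9, 62.5, 58.6 and 24.6 CPM in refed fish, against 102, 72.5, 56.0 and 48.3 CPM in fed controls (log2 fold change -0.51 ± 0.34, adjusted p = 0.704). The fed controls themselves averaged 99.1 ± 31.3 CPM at 21dpS (SD, n = 4) and 58.3 ± 7.02 CPM at 3dpS (SD, n = 3), with a log2 fold change of 0.71 ± 0.31 (adjusted p = 0.339).

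*pla2g12b* encodes a secreted phospholipase A2 relative without catalytic activity, which in zebrafish and mice is needed for triglyceride-rich lipoproteins to be secreted. At 21dpS it measured 94.8, 135, 142 and 215 CPM in starved fish, against 321, 275, 336 and 279.6 CPM in fed controls, with no overlap. The log2 fold change was -1.12 ± 0.27 (SE, adjusted p = 0.0390), or 46.2% of the fed level (95% interval 31.0% to 68.8%). At 3dpS it measured 325, 201, 224 and 248 CPM in starved fish, against 251, 304 and 518 CPM in fed controls (log2 fold change -0.53 ± 0.29, adjusted p = 0.434). At 3dpR it averaged 252 ± 88.6 CPM in refed fish and 251 ± 39.9 CPM in fed controls (SD, n = 4 each). The log2 fold change there was -0.01 ± 0.26, and its sign turned positive under 6 of 7 alternative fits. *pla2g12b* overlaps the gene named OIT3 in the files, which had 0 to 5 reads per library beside 61 to 335 for *pla2g12b*. Here too the counts do not show from which gene the reads in the overlap came.

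The 4 calls at 21dpS were repeated with each library left out in turn. *mttp* was no longer called without starved replicate 1, 2 or 3 or fed replicate 4. *scp2a* was no longer called without starved replicate 1, 2 or 4 or fed replicate 2, and *pla2g12b* was called in 1 of these 8 fits, without starved replicate 4. The adjusted p reached 0.0709, 0.0714 and 0.108 for *mttp*, *scp2a* and *pla2g12b*, and all their fold changes stayed negative. The number of the 8 genes called was 1 to 3 with 1 library left out.

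Markers of cell types were set beside these 4 genes at 21dpS. None of the 5 enterocyte markers was called, 4 of 5 had negative log2 fold changes, and the median was -0.46. The largest were *vil1*, the brush border protein villin, at -0.80 ± 0.22 (SE, adjusted p = 0.0643), and *cdh17*, the liver-intestine cadherin, at -0.64 ± 0.22 (adjusted p = 0.119). With libraries scaled to the summed reads of these 5 markers, a setting chosen after the values were seen, the median of all tested genes moved to 0.27 at 21dpS. In this fit *fabp1b.1* (-1.82, adjusted p = 0.0124), *mttp* (-1.33, adjusted p = 0.0445) and *scp2a* (-1.32, adjusted p = 0.0434) remained called. *pla2g12b* did not (-0.87, adjusted p = 0.0940), and *scarb1* was called higher (1.74, adjusted p = 0.0456). For *scarb1*, which passed the filter on low counts through the starved fish, this is a description. Of the other marker lists, only exocrine pancreas held calls. Of its 12 genes 6 were tested and 2 called, beside the 1.65% of all tested genes called lower. The 2 were *prss59.1*, a trypsin (-2.12, adjusted p = 0.0462), and *cel.2*, a bile salt-stimulated lipase (-1.56, adjusted p = 0.0490). All 5 markers of lysosome-rich enterocytes, which take up protein in the hind part of the gut, had negative log2 fold changes (median -0.79), and liver markers had a median of 0.40. The part of these shifts in the 4 calls was not tested beyond the scaling above.

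**Figure D3:**
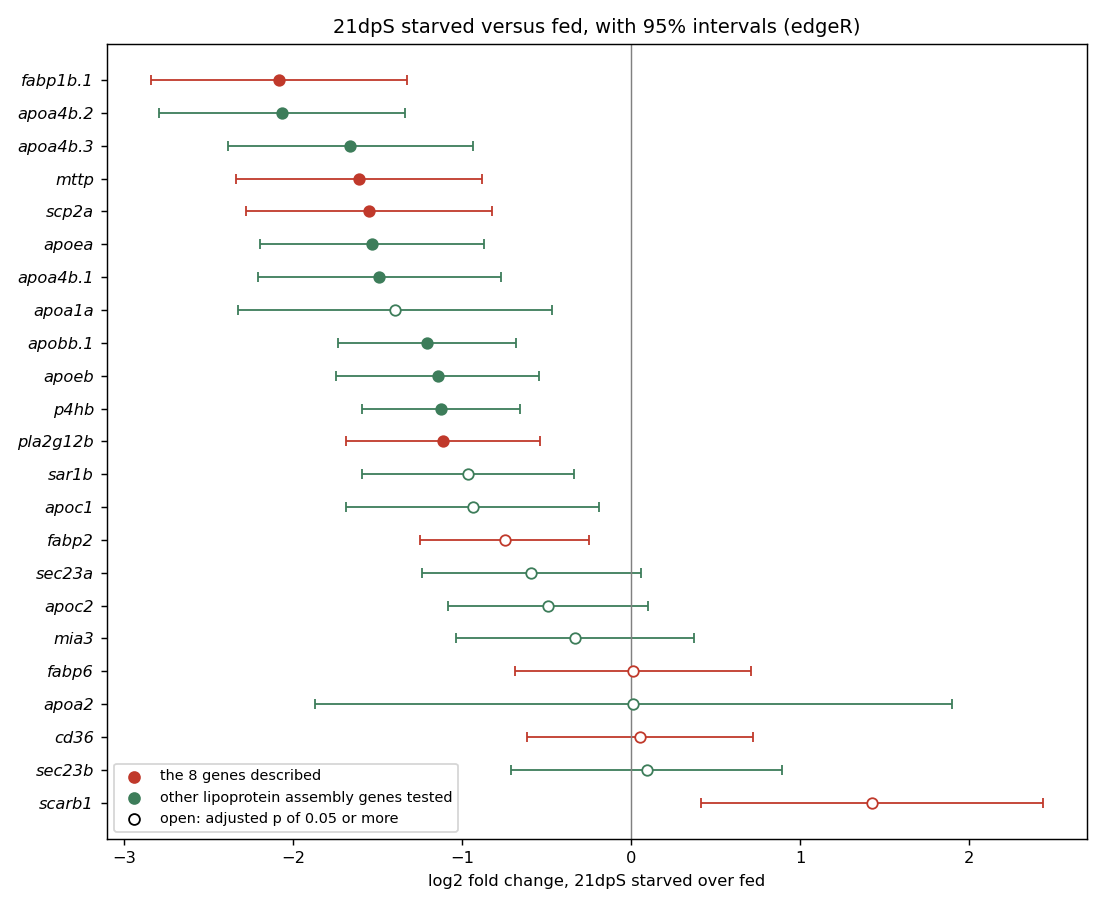
Log2 fold change of 21dpS starved fish over 21dpS fed controls for the 8 genes and the 15 other lipoprotein assembly genes tested, with 95% intervals from edgeR. Filled points have an adjusted p under 0.05, and they lie between -2.09 (*fabp1b.1*) and -1.12 (*pla2g12b*).

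Part of the genes that build the particle together with *mttp* and *pla2g12b* also fell at 21dpS. Of 29 further lipoprotein assembly and secretion genes, 25 were matched and 15 tested, and 7 fell while none rose, beside the 1.65% of all tested genes called lower. The median log2 fold change of the 15 was -1.13, against -0.02 for all genes. This list was chosen with earlier results of these data known, and the study names *apobb.1*, *apoa1a* and *apoa4b.1* as lowered in these libraries. Its counts are therefore not independent evidence of a direction. *p4hb*, the protein disulfide isomerase that forms the second subunit of the triglyceride transfer complex, averaged 245 ± 30.4 CPM in starved fish and 509.7 ± 103 CPM in fed controls (SD, n = 4 each). Its log2 fold change was -1.13 ± 0.22 (SE, adjusted p = 0.0162). *apobb.1*, an apolipoprotein B gene and the acceptor of the lipid, averaged 756 ± 209.8 CPM in starved fish and 1665 ± 270.1 CPM in fed controls (log2 fold change -1.21 ± 0.25, adjusted p = 0.0186).

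Most genes of the list had higher values in the 21dpS fed controls than in the other fed controls. Against 3dpS fed controls, 13 of 16 lipoprotein assembly genes tested in 21dpS fed controls had positive log2 fold changes (median 0.59), and *apoa4b.3* was called (2.63, adjusted p = 0.0215). Of all genes tested there, 48.8% were negative (median 0.01) and 0.0588% were called. In 3dpR against 21dpS fed controls 14 of 15 list genes were negative (median -0.54), and none was called. Of all genes tested in that comparison, 52.0% were negative (median -0.02) and 0% were called. *p4hb* averaged 263 CPM in 3dpS starved fish, 245 CPM in 21dpS starved fish and 261 CPM in 3dpR refed fish, against 264 CPM in 3dpS fed, 509.7 CPM in 21dpS fed and 395 CPM in 3dpR fed controls. Its fall at 21dpS is therefore a difference from a fed group with the highest of the 6 means. *apobb.1* differed less among fed controls, at 1519 CPM at 3dpS, 1665 CPM at 21dpS and 1147 CPM at 3dpR. Of the 8 genes, *fabp1b.1* and *mttp* also had their highest mean in the 21dpS fed controls, and how far these controls set the falls was not tested beyond the comparisons of fed controls.

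The other 5 list genes that fell at 21dpS encode apolipoproteins of the particle surface. *apoa4b.2* had the lowest log2 fold change, -2.07 ± 0.34 (SE, adjusted p = 0.00589), with 53.8 ± 28.2 CPM in starved fish and 211 ± 35.6 CPM in fed controls (SD, n = 4 each). *apoa4b.3* (-1.66), *apoea* (-1.53), *apoa4b.1* (-1.49) and *apoeb* (-1.15) had adjusted p of 0.0186 to 0.0426. *apoa4b.3* is also the gene called higher in 21dpS than in 3dpS fed controls, so its fall is a difference from that higher fed level. For *apoa4b.1* the paper proposes that a high level in the 21dpS fed fish may account for part of the fall. How far the fed controls set these falls was not tested. The 3 *apoa4b* genes are close copies, and how the counting shared reads among them is not stated. The secretory coat genes were not called: *sar1b*, the GTPase that starts the vesicle coat, had -0.97 ± 0.29 (adjusted p = 0.0890), and *sec23a* and *sec23b* had -0.59 and 0.09. Liver also makes several of these apolipoproteins, and the part of liver RNA in their levels was not tested.

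Lists for the steps before and around lipoprotein assembly held no call in starved or refed fish against fed controls. Of 22 matched genes of fatty acid uptake and re-esterification, 13 were tested at 21dpS, with a median log2 fold change of -0.22. The largest were *mogat3b* (-1.17, adjusted p = 0.102) and *agpat2* (-0.97, adjusted p = 0.204), enzymes that add fatty acids to a glycerol backbone. At 3dpS the lipid droplet coat gene *plin2* had 2.82 ± 0.92 (SE), with an adjusted p of 0.203. Of the sterol handling genes only *abca1b*, a cholesterol exporter, was tested at 21dpS (-0.19), and of the paralogs of the 8 genes only *fabp3* (0.70). Of 16 matched transcription factors linked to lipid absorption genes, 4 were tested at 21dpS. *gata6*, a zinc finger factor of the gut epithelium, had -1.42 ± 0.37 (adjusted p = 0.0588), and *srebf2*, which controls sterol synthesis genes, 1.35 ± 0.56 (adjusted p = 0.198).

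At 3dpR none of these lists held a call. The 14 lipoprotein assembly genes tested had a median log2 fold change of -0.02, as did all tested genes, with 7 positive and 7 negative.

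Fish from the starved tanks were also compared across time, at 3dpR with food returned and at 21dpS without it. Time and refeeding cannot be told apart here, and the starved fish are those of the comparison above. Of the 8 genes, 3 were called, beside 11.3% of all tested genes, and 1 of the 3, *scarb1*, passed the filter on low counts only through the starved fish. *fabp1b.1* rose, with a log2 fold change of 1.07 ± 0.32 (SE, adjusted p = 0.0403), and so did *scp2a*, with 1.06 ± 0.28 (adjusted p = 0.0241). Refed fish held 210% (95% interval 132% to 334%) and 208% (139% to 313%) of the level of starved fish for these genes. *scarb1* had 3 to 6 reads in refed fish and 15 to 39 in starved fish, so its log2 fold change of -2.12 ± 0.44 (adjusted p = 0.00856) is given as a description. Marker genes of liver and enterocytes were set beside these values, and none was called. All 4 liver markers tested had negative log2 fold changes (median -1.70, summed level 20.5 to 256 CPM in refed and 255 to 431 CPM in starved fish). All 5 enterocyte markers had positive ones (median 0.53, summed level 2153 to 3138 CPM in refed and 1844 to 2618 CPM in starved fish). Liver and enterocytes both express *scarb1* and *scp2a*, and the part of these shifts in the 3 calls was not tested.

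The other 5 genes had positive log2 fold changes that were not called. *pla2g12b* had 0.85 ± 0.31 (SE, adjusted p = 0.0897), *mttp* 0.64 ± 0.37 (adjusted p = 0.267) and *fabp2* 0.56 ± 0.22 (adjusted p = 0.119). The groups of *fabp2* did not overlap, as in 542 of 3008 tested genes (either direction). With each of the 8 libraries left out in turn, *fabp1b.1* was called only without refed replicate 1, and its adjusted p reached 0.119. *scp2a* was called only without refed replicate 1 or 2 or starved replicate 3, and its adjusted p reached 0.0625. Of the 14 other lipoprotein assembly genes tested, 1 was called, beside 11.3% of all tested genes. This was *apobb.1*, which rose (0.78 ± 0.24, adjusted p = 0.0447), while *p4hb* (0.16), *apoa4b.2* (0.10) and *apoeb* (-0.04) were not called. Of 12 fat uptake and re-esterification genes tested, 1 was called, beside the same 11.3% of all tested genes. This was *plin2*, with a log2 fold change of -2.89 ± 0.49 (adjusted p = 0.00276). It also passed the filter through the starved fish, with 1 to 4 reads in refed fish and 12 to 40 in starved fish.

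**Figure D4:**
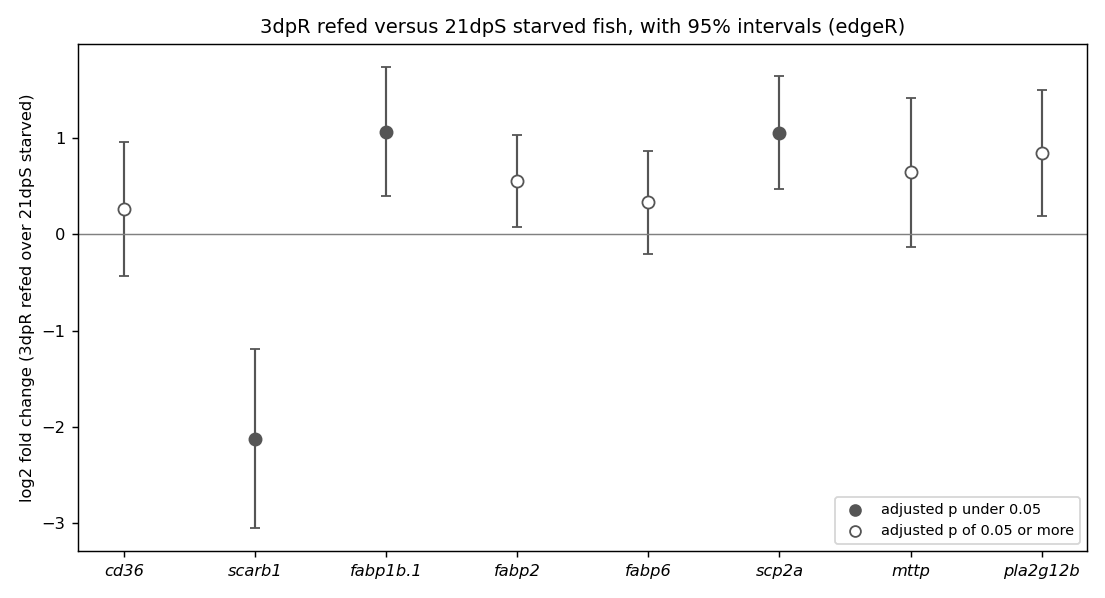
Log2 fold change of 3dpR refed fish over 21dpS starved fish for the 8 genes, with 95% intervals from edgeR (n = 4 fish each). Filled points have an adjusted p under 0.05: *fabp1b.1* at 1.07 and *scp2a* at 1.06 lie above 0, and *scarb1* at -2.12, which passed the filter on low counts only through the starved fish, lies below it.

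Whether the effect of diet itself differed between time points was tested in 1 fit of all 23 libraries, which shares its starved and fed fish with the comparisons above. For 21dpS minus 3dpS none of the 8 was called, and 0% of all tested genes were. Unadjusted p fell under 0.05 for 3 of the 8, against 8.64% of all genes, and DESeq2 called none of the 8. Among the 3 is *scarb1*, which passed the filter on low counts through the groups where it was high. It held 4 to 14 reads in 21dpS fed controls and 15 to 39 in 21dpS starved fish, so its difference is a description. The difference was -1.46 ± 0.47 (SE, adjusted p = 0.365) for *mttp*, -1.09 ± 0.42 (adjusted p = 0.484) for *scp2a* and 1.17 ± 0.57 (adjusted p = 0.578) for *scarb1*. For *fabp1b.1* it was -0.88 ± 0.49 (adjusted p = 0.6251), so its fold changes at the 2 times were not shown to differ.

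For 3dpR minus 21dpS none of the 8 was called, beside 0.0432% of all tested genes. Unadjusted p fell under 0.05 for 5 of the 8, against 9.94% of all genes, and DESeq2 called none of the 8. Among the 5 is *scarb1*, which passed the filter on low counts through the groups where it was high. It held 3 to 6 reads in 3dpR refed fish and 4 to 10 in 3dpR fed controls, so its difference is a description. The differences were 1.57 ± 0.47 (SE, adjusted p = 0.209) for *fabp1b.1*, 1.26 ± 0.40 (adjusted p = 0.260) for *scp2a*, 1.104 ± 0.46 (adjusted p = 0.383) for *mttp* and 1.098 ± 0.39 (adjusted p = 0.303) for *pla2g12b*. For *scarb1* the difference was -1.80 ± 0.66 (adjusted p = 0.327).

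Fed controls were compared with each other as a measure of change without a change of diet. At 21dpS against 3dpS none of the 8 was called, beside 0.0588% of all tested genes. Unadjusted p was under 0.05 for *mttp*, *cd36* and *scarb1*, against 13.8% of all genes, and DESeq2 called *cd36*. At 3dpR against 21dpS none of the 7 tested was called (0% of all genes), and none had an unadjusted p under 0.05, against 5.20% of all genes. At 3dpR against 3dpS none of the 8 was called (0% of all genes), and *cd36* and *scarb1* had an unadjusted p under 0.05, against 6.26% of all genes. DESeq2 called none of the genes in these last 2 comparisons. Against 3dpS fed controls, *scarb1* passed the filter on low counts only through the 3dpS fed fish. They held 14 to 32 reads, against 4 to 14 at 21dpS and 4 to 10 at 3dpR. Its unadjusted p in both comparisons is therefore only part of a description. *fabp2* had the steadiest fed level, with means of 299 CPM at 3dpS, 297 CPM at 21dpS and 308 CPM at 3dpR.

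The lowest of the 6 group means was that of 21dpS starved fish for *fabp1b.1*, *fabp2*, *mttp*, *pla2g12b* and *scp2a*. It was that of 3dpS starved fish for *fabp6*, of 21dpS fed controls for *cd36* and of 3dpR refed fish for *scarb1*. The highest mean was 5.37 times the lowest for *scarb1*, the gene with the fewest reads, 4.00 times for *fabp1b.1*, 2.95 times for *mttp* and 1.66 times for *fabp2*, the narrowest span of the 8.

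Across the 23 libraries, log2 CPM of the genes most like each of the 8 was described by Pearson's r and Spearman's rho, which include the differences between the 6 groups and a shared library depth. Of 4627 other genes, *apoea* was most like *fabp1b.1* (r = 0.94, rho = 0.94), followed by *fads2*, a fatty acid desaturase (r = 0.90, rho = 0.86), and ATP5F1A, a subunit of the mitochondrial ATP synthase (r = 0.87, rho = 0.88). For *fabp2* the 3 were ATP5F1A (r = 0.81, rho = 0.78), *fabp1b.1* (r = 0.81, rho = 0.80) and *apoea* (r = 0.79, rho = 0.82). For *mttp* they were *p4hb* (r = 0.75, rho = 0.72), *apobb.1* (r = 0.75, rho = 0.76) and *pla2g12b* (r = 0.73, rho = 0.66). For *pla2g12b* they were MTM1, a phosphoinositide phosphatase (r = 0.83, rho = 0.78), *apobb.1* (r = 0.79, rho = 0.70) and *elovl2*, a fatty acid elongase (r = 0.78, rho = 0.50). For *scp2a* they were *ptk6b* (r = 0.85, rho = 0.70), the peroxisomal transporter ABCD3 (r = 0.84, rho = 0.77) and CYB5A, a cytochrome b5 (r = 0.84, rho = 0.54). MTM1 had low counts, with group means from 5.44 CPM in 21dpS starved fish to 18.4 CPM in 3dpS fed controls. It did not pass the filter on low counts in 21dpS starved fish against fed controls.

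The genes most like the other 3 were of other kinds. The genes given here for *cd36* are SH3BGRL (r = 0.82, rho = 0.85) and si:ch211-247l8.10 (r = 0.80, rho = 0.82). *scarb1* was most like *malat1*, a nuclear long noncoding RNA (r = 0.76, rho = 0.74), the neutral amino acid transporter SLC6A19 (r = 0.75, rho = 0.74) and TRIM3 (r = 0.75, rho = 0.74). *malat1* averaged 54.9 ± 6.16 CPM in 3dpR refed fish and 113 ± 24.8 CPM in 21dpS starved fish (SD, n = 4 each), a log2 fold change of -0.99 ± 0.26 (SE, adjusted p = 0.0269), and its part in the low *scarb1* level of refed fish was not tested. *fabp6* was most like *grnas* (r = 0.72, rho = 0.74), si:ch211-14a17.10 (r = 0.67, rho = 0.56) and si:dkey-256e7.5 (r = 0.64, rho = 0.41). Among the 8 themselves, the highest r was 0.81 between *fabp1b.1* and *fabp2* and the lowest -0.41 between *fabp1b.1* and *scarb1*.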

How the data were processed

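RNA was taken from 23 single zebrafish intestines, depleted of ribosomal RNA and sequenced as 50-base single-end reads. The authors trimmed reads with Trim Galore, aligned them to GRCz10 with STAR at default settings and counted them per Ensembl gene with HTSeq, and they deposited raw counts that were not normalized. Strand setting and annotation release are not given in the sources used here. Libraries held 500205 to 1236436 counted reads.

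The labels gave each library's time point, feeding and tank. CPM used the library totals multiplied by TMM factors computed over all 23 libraries (0.816 to 1.23). Symbols were matched through a gene name table and a supplementary table of the study. Counts were tested in R 4.3.3 with edgeR 4.0.16 (filterByExpr with a minimum count of 10, TMM, robust quasi-likelihood F test, two-sided), on the libraries of the groups compared, with Benjamini-Hochberg adjustment over all genes tested and a threshold of 0.05. The scripts were tested on simulated data. log2 CPM for correlations used a prior count of 2.

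Alternatives were DESeq2 1.42.0 (the study's tool), RLE factors, no filter, omission of the 100 most abundant genes, all 23 libraries in 1 fit, tank number as a replicate block, each library left out in turn and, added after seeing the data, scaling to the enterocyte markers. The 8 genes and all gene lists were chosen with earlier results of these data known. Named are the 8 genes, every list gene called against fed controls, for other lists the 2 tested genes with the largest fold changes, and the 3 genes most like each of the 8, of which 1 is not reported here. Fed and starved fish with the same tank number came from different tanks. No sequence was used here.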

Additional observations from a re-analysis of the deposited data

Results flagged for a closer look

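Among 40 groups of 4 libraries tested for a fish far from the others (8 genes in 5 groups), 1 was found, where chance flags about 1 in 20. *fabp1b.1* measured 325 CPM in fed replicate 2 at 21dpS, while the other 3 fed controls of that time measured 151 to 171 CPM, and the gap made up 0.88 of the range of the group. *fabp1b.1* was called at 21dpS with and without this library.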

How the results depend on the processing

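At 21dpS the same 4 genes were called by DESeq2, with RLE factors and without the 100 most abundant genes, and with tank number as a replicate block. Without the filter on low counts and with all 23 libraries in 1 fit, 5 were called, the 4 and *scarb1*. The *scarb1* difference remains a description, since its 21dpS fed controls held 4 to 14 reads. With 1 library left out, the number called was 1 to 3 at 21dpS and 1 to 3 for 3dpR refed against 21dpS starved fish. At 3dpS, and for fed controls at 21dpS against 3dpS, 1 gene was called by DESeq2 and 1 without the filter, *fabp1b.1* and *cd36*. The replicate block, fitted although fed and starved fish share only the number of a tank, left the count of the 8 genes called at 0, 4 and 0 at 3dpS, 21dpS and 3dpR. It left 0 in the 3 comparisons of fed controls and 3 for refed against starved fish, where the number marks a shared tank. Over all genes the block gave 135 calls at 21dpS, against 90 without it, and 17 for fed controls at 21dpS against 3dpS, against 2. Deviations of same-numbered tanks correlated with a mean r of -0.13 to 0.082 in starved or refed fish against fed controls, where the tanks differ. Where the number marks a shared tank, the mean r was -0.066 to 0.20. The highest was that of fed controls at 3dpR against 21dpS, with single pairs of fish from 0.042 to 0.46.

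Sign changes touched only fold changes that were not called. At 3dpR *pla2g12b* had 0.049 by DESeq2, 0.021 with RLE factors, 0.069 without the filter, 0.020 without the abundant genes, 0.043 with all libraries and 0.18 scaled to enterocyte markers, and *cd36* had 0.070 with that scaling. At 3dpS *mttp* had 0.14 with that scaling, and at 21dpS *cd36* had -0.12 with the replicate block. With 1 library left out, the log2 fold change ran from -0.17 to 0.23 for *cd36* and from -0.23 to 0.19 for *fabp6* at 21dpS. At 3dpR it ran from -0.35 to 0.047 for *cd36* and from -0.17 to 0.18 for *pla2g12b*, and at 3dpS from -0.20 to 0.038 for *mttp* and from -0.040 to 0.57 for *scarb1*. The causes were not tested.

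Depth limits *scarb1* most, since its 3dpR libraries held 3 to 10 reads. Counts of all called genes also changed with the filter and tool, at 3dpS 21 by edgeR, 95 by DESeq2 and 172 without the filter, and at 21dpS 90, 207 and 227. With 1 library left out they ran from 1 (fed replicate 2 or starved replicate 4) to 116 (fed replicate 1) at 3dpS, from 35 (starved replicate 4) to 137 (fed replicate 3) at 21dpS and, for refed against starved fish, from 117 (starved replicate 4) to 315 (refed replicate 2), against 341 with all 8 libraries, so the shares of all genes called are as uncertain. Scaling to the enterocyte markers raised the median of all genes to 0.23, 0.27 and 0.22 at 3dpS, 21dpS and 3dpR.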
